A study of Mus musculus with 24 samples.

Results

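The genes of the proteasome were followed in the livers of mice fed phloridzin, a glucoside of apple that blocks sodium-glucose cotransport. Genes were chosen by name, as probe sets with a single platform gene symbol that starts with Psma to Psmg and a number, and a gene with several probe sets was represented by the probe set with the highest mean over all 24 arrays. The rule matched 49 genes (103 probe sets), and 48 of them passed the filter on low signals among 13118 genes tested. Psmc3ip, which did not pass, and Psme3ip1 match by name and are no proteasome genes, which left 47 genes: 8 core alpha, 8 core beta, 6 base ATPases, 11 other regulatory particle genes, 4 genes of the immunoproteasome (Psmb8, Psmb9, Psmb10 and Psme1), 3 other activators and inhibitors and 7 assembly chaperones. The immunoproteasome activator Psme2 shares its probe set with Psme2b in the platform annotation and was not analysed here. All 47 genes that could be named passed the filter, although Psma8, a testis form of an alpha subunit, and Psmb11, the beta subunit of the thymus proteasome, lay close to the floor of the scale (3.00 to 4.06 and 3.00 to 4.62 on the log2 scale, where the floor is 3.00).

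The mice were male BALB/c, 6 weeks old on arrival, held 3 to a cage, with 6 mice in each of 4 diet groups. All ate the purified AIN-93G diet for 14 days, without phloridzin in the control group and with 0.1, 0.5 or 1.0% phloridzin in the others. Total RNA of whole liver was copied to biotin-labelled cRNA and hybridised to Affymetrix mouse arrays, whose deposited values are linear intensities. The series title asks how phloridzin alters hepatic gene expression.

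The proteasome is the cytosolic and nuclear protease that degrades proteins tagged with ubiquitin. Its barrel-shaped core is built of outer rings of alpha subunits, which form the gate, and inner rings of beta subunits, of which Psmb5, Psmb6 and Psmb7 carry the chymotrypsin-like, caspase-like and trypsin-like sites. The regulatory particle on its ends binds ubiquitin chains, removes them and threads the substrate in with a ring of ATPases. After interferon-gamma the sites can be replaced by Psmb8, Psmb9 and Psmb10, which make the immunoproteasome that supplies peptides for class I antigen presentation. In liver it is known for the turnover of short-lived regulators and damaged proteins, and proteasome genes as a group are known targets of the transcription factors NRF1 (Nfe2l1) and NRF2 (Nfe2l2).

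The 24 arrays did not hold 24 separate RNAs. Over 1463 well measured genes, 13 pairs of arrays differed with an SD of only 0.0436 to 0.0577 on the log2 scale and 8 further pairs with 0.108 to 0.137, against 0.164 or more in all others. Arrays taken as 1 RNA, an inference from their signals alone, were averaged. RNA that carried labels of both the 0.1% diet (replicates 1, 3 and 6) and the 1.0% diet (replicate 1) was left out of every comparison. This gave 11 RNA samples: 4 control, 3 at 0.1%, 2 at 0.5% and 2 at 1.0%. The numbers at 0.5 and 1.0% rest on 2 joins of array sets whose 200 most variable genes differed 0.941 and 1.18 times as much as the rest, against a limit of 1.2 and a next lowest ratio of 1.41. Without these joins there were 3 samples at 0.5% and 3 at 1.0%. Nothing else shows which of them are separate mice, so the tests reflect only how far these RNA samples differ, which may be technical in part, and all comparisons share the same 4 control samples. The 0.1% sample of replicate 4 stood apart in RNA quality: its actin probe sets differed by 2.32 between the 3' and the 5' end, against 1.41 ± 0.10 (SD, n = 4) in control. The 0.5% sample of replicates 4 and 5 also lay outside control, at 1.78 for actin (control 1.31 to 1.54) and -0.18 for Gapdh (control -0.37 to -0.28), where the other 0.5% sample read -0.18 too. Hepatocyte markers gave a summed signal of 16.52 to 16.55 in control and 16.49 to 16.54 in the phloridzin samples on the log2 scale (9 of 10 listed genes measured).

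No proteasome gene differed between a phloridzin diet and control at an adjusted p under 0.05, with quantile normalization, arrays of 1 RNA averaged and all 11 samples. The count was 0 of 47 at 0.1%, where 0.0229% of all genes tested were called, 0 of 47 at 0.5% (0.00762%) and 0 of 47 at 1.0% (0.0152%), by limma with Benjamini-Hochberg adjustment over all genes. At an unadjusted p under 0.05 there were 4 of 47 genes at 0.1% (8.47% of all genes), 4 of 47 at 0.5% (5.22%) and 0 of 47 at 1.0% (6.49%). Of these, 1 was higher (4.48% of all genes) and 3 lower (3.99%) at 0.1%, and 0 were higher (2.52%) and 4 lower (2.71%) at 0.5%. The lowest adjusted p of any proteasome gene in limma was 0.515 at 0.1%, 0.679 at 0.5% and 0.772 at 1.0%. In whole liver, fewer cells of a type and less RNA per cell cannot be told apart.

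The 95% intervals bound what these data allow. The whole interval lay within 1.5-fold of control in either direction for 38 of 47 genes at 0.1% (43.4% of all genes), 35 at 0.5% (37.2%) and 40 at 1.0% (35.9%). The median log2 difference of the 47 genes was 0.01 at 0.1%, -0.06 at 0.5% and -0.06 at 1.0%, beside 0.00, 0.01 and -0.02 for all genes tested. Below control lay 23 of 47 genes at 0.1% (49.4% of all genes), 34 at 0.5% (48.9%) and 31 at 1.0% (54.0%) with quantile normalization. With arrays centred on their medians instead, these counts became 36, 46 and 46 of 47, beside 62.3, 64.2 and 72.8% of all genes, whose median difference moved to -0.08, -0.09 and -0.20. The medians of the 47 genes then became -0.095, -0.23 and -0.35, and 36, 23 and 10 of the 47 intervals lay within 1.5-fold (39.9, 29.9 and 17.3% of all genes). The counts below control, the medians and, at 0.5 and 1.0%, the interval counts thus depended on the scaling.

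**Figure D1:**
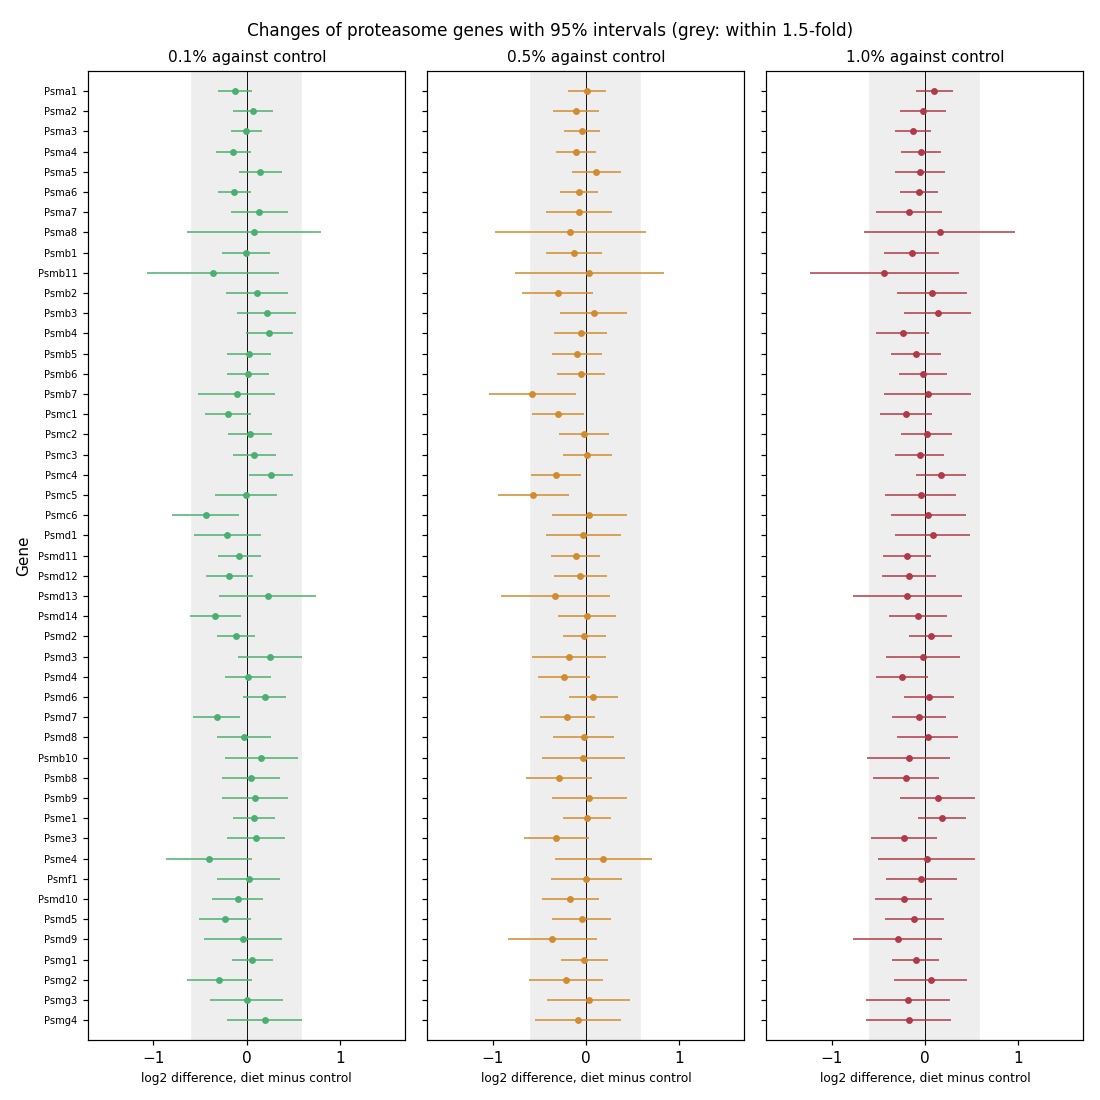
Log2 difference from control (x axis) of each of the 47 proteasome genes (y axis, by class) in the 3 phloridzin diets; points are the fitted differences, lines the 95% intervals, and the grey band marks 1.5-fold either way. With the quantile normalization plotted, 38, 35 and 40 of 47 intervals lie inside the band at 0.1, 0.5 and 1.0%, and Psma8 and Psmb11, which are near the floor, have wide ones.

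Proteasome genes had a smaller median spread than all genes tested, without matching by signal. Their median SD between repeat arrays of 1 RNA was 0.0463 on the log2 scale, against 0.145 for all genes tested, and that between the 4 control samples was 0.127, against 0.205. In 43 of 47 genes the control samples differed by more than repeat arrays did, beside 9348 of 13118 genes tested. Repeat arrays were picked for small differences over well measured genes, which hold proteasome genes too. Small SDs between repeat arrays, and control SDs above them, were thus set in part by that choice. Psma8 and Psmb11, near the floor, had SDs between repeat arrays of 0.285 and 0.245. Neither these SDs nor the interval counts were compared with those of genes of like signal.

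The alpha subunits of the core, which form its gate, stayed close to control with quantile normalization and the probe sets used. The 8 genes had median log2 differences of 0.03 at 0.1%, -0.07 at 0.5% and -0.05 at 1.0%. In each diet 7 of 8 intervals lay within 1.5-fold (43.4, 37.2 and 35.9% of all genes), the exception being Psma8. A second bright probe set of Psma5 gave -0.21 and -0.31 at 0.1 and 0.5%, against 0.15 and 0.11 with the one used. For Psma6 a second one gave 0.17, 0.13 and 0.07 in the 3 diets, against -0.13, -0.07 and -0.07. That of Psma7 shared the signs of the one used. Psma3 had the smallest spread between control samples of the 47 genes (SD 0.0103, n = 4), with values of 11.21, 11.20, 11.21 and 11.19 there, 11.21, 11.23 and 11.16 at 0.1%, 11.14 and 11.18 at 0.5%, and 10.97 and 11.19 at 1.0%. Its 0.5% and 1.0% samples all lay below the control samples, with differences of -0.04 (95% interval -0.23 to 0.15) and -0.13 (-0.32 to 0.07). However, repeat arrays of 1 RNA differed more for Psma3 (SD 0.0203) than the control samples did. The 0.5% array of replicate 5 read 11.21 on its own, inside control. Psma1 lay below every control sample in all 3 samples at 0.1% (9.88 to 9.93, control 9.95 to 10.09) and above every control sample in both at 1.0% (10.15 and 10.12), at an adjusted p of 0.682 and 0.855 in limma.

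Among the catalytic genes of the core, Psmb5 and Psmb6 overlapped control in each diet and Psmb7 was low in 1 sample. Psmb5, the chymotrypsin-like subunit, read 9.21, 9.25, 9.13 and 9.07 in control, 9.08, 9.08 and 9.39 at 0.1%, 9.11 and 9.03 at 0.5%, and 9.18 and 8.95 at 1.0% on the log2 scale. The difference from control was 0.02 (95% interval -0.21 to 0.26) at 0.1%, -0.09 (-0.36 to 0.18) at 0.5% and -0.10 (-0.37 to 0.17) at 1.0%. The highest and the lowest sample were both from phloridzin diets, 0.1% replicate 5 and 1.0% replicate 4. Psmb6, the caspase-like subunit, read 9.81, 9.83, 10.05 and 9.96 in control, 9.76, 10.02 and 9.99 at 0.1%, 9.97 and 9.76 at 0.5%, and 9.97 and 9.80 at 1.0%. Its differences were 0.01 (-0.21 to 0.24), -0.05 (-0.30 to 0.21) and -0.03 (-0.28 to 0.23) in the same order of diets.

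Psmb7, the trypsin-like subunit, read 10.97, 10.83, 11.15 and 10.95 in control, 10.97, 10.79 and 10.85 at 0.1%, 10.99 and 9.82 at 0.5%, and 10.98 and 11.03 at 1.0%. The low value was the 0.5% sample of replicates 4 and 5, in which both arrays were low (9.78 and 9.87), while the other 10 samples lay between 10.79 and 11.15. The mean difference at 0.5% was -0.57 ± 0.22 (SE), or 1.49-fold lower, at an adjusted p of 0.812 in limma, and it was 0.01 without that sample and -1.15 without the other 0.5% sample, where the gene passed the test (adjusted p 0.0223 in limma) with a lone 0.5% sample that was assumed to vary like the other groups. The low sample also lay outside control in both RNA quality measures, whose part in the low value was not tested. The gene has 1 probe set, so no second probe set bears on the value.

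**Figure D2:**
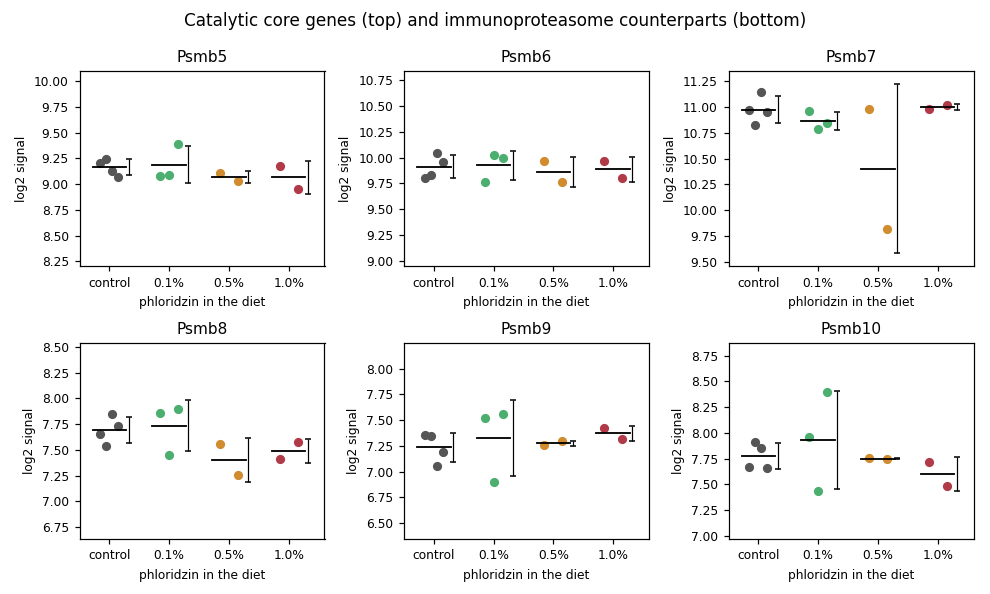
Log2 signal (y axis) of the catalytic core genes Psmb5, Psmb6 and Psmb7 and their immunoproteasome counterparts Psmb8, Psmb9 and Psmb10 in 4 control, 3 0.1%, 2 0.5% and 2 1.0% samples (x axis, phloridzin in the diet); points are RNA samples, lines the group means and bars the SD. Points that lie apart from their group are the 0.5% sample of replicates 4 and 5 for Psmb7, at 9.82, and the 0.1% sample of replicate 4 for Psmb8 and Psmb9, at 7.45 and 6.90.

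The other beta subunits were spread in both directions. Psmb4 read 11.12, 11.28, 11.31 and 11.37 in control, 11.43, 11.41 and 11.70 at 0.1%, 11.21 and 11.21 at 0.5%, and 10.78 and 11.28 at 1.0%. All 3 samples at 0.1% lay above all control samples (4.13% of all genes do), and 1 sample at 1.0% was the lowest of all. The difference of 0.24 (95% interval -0.01 to 0.50) at 0.1% had an adjusted p of 0.598 in limma, and a second probe set of the gene gave -0.14. Psmb2, a beta subunit with no active site, was below every control sample in both 0.5% samples (7.55 and 7.31, control 7.59 to 7.86) and reached 8.05 in 1 sample at 1.0%. Its SD between repeat arrays (0.157) was above that between control samples (0.109). The 0.5% array of replicate 2 read 7.70 on its own, and without the joins the 0.5% samples did not all lie below control. The 8 core beta genes had median differences of 0.02, -0.07 and -0.06 in the 3 diets.

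The sequences upstream of these genes were searched for the core of the antioxidant response element, TGACNNNGC, to which NRF2 binds and which NRF1 can also bind, on both strands. RefSeq (GRCm38.p6) gave 41 windows of 300 bases (250 before the start and 50 after) for 39 of the 47 genes. The motif lay in 6 of 41 windows (14.6%), those of Psmb5, Psmb6, Psmc6, Psmd9, Psmd12 and Psme4, against 12.4% of 32851 windows of all genes. The matches do not mark binding sites. The stretches of 100 bases that hold the motif are given for Psmb5 and Psmb6, the catalytic genes whose windows hold it, and for Psmc6, the ATPase gene with the largest difference at 0.1%, with the motif in capitals. They lie at chr14:54617996-54618095 (minus strand), chr11:70525257-70525356 (plus strand) and chr14:45329574-45329673 (plus strand, motif read on the other strand), with the first base of the motif at -47, -9 and -227 from the start.
Psmb5: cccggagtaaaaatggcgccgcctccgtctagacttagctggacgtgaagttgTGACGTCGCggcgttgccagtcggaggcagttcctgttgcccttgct
Psmb6: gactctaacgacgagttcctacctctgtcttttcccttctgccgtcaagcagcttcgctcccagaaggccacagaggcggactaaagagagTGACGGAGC
Psmc6: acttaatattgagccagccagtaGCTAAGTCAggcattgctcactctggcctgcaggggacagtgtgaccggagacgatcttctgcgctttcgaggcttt

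Other motifs were counted in the same windows. The CCAAT box (CCAAT, both strands) lay in 14 of 41 windows (34.1%, against 37.4%). GAAANNGAA, the core of the element bound by interferon regulatory factors, lay in 7 (17.1%, against 8.56%), those of Psme1, Psmb3, Psmb4, Psmc2, Psmd4, Psmd9 and Psmg4, and in none of those of Psmb8, Psmb9 and Psmb10.

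Of all genes tested, 8.47% had an unadjusted p under 0.05 at 0.1% and 5.22% at 0.5%. The 6 base ATPases, which unfold the substrate, held 2 of the 4 such proteasome genes at 0.1% (Psmc4 and Psmc6) and 3 of the 4 at 0.5%. The latter were Psmc1, Psmc4 and Psmc5, all lower, besides Psmb7. Psmc5 read 8.81, 8.83, 8.95 and 8.63 in control, 8.80, 8.88 and 8.71 at 0.1%, 8.63 and 7.85 at 0.5%, and 8.81 and 8.71 at 1.0%. Again the 0.5% sample of replicates 4 and 5 was low on both arrays (7.84 and 7.86), and the other 0.5% sample lay at the lower edge of control. The difference at 0.5% was -0.56 ± 0.18 (SE), or 1.48-fold lower, at an adjusted p of 0.679 in limma, and without that sample it was -0.17. This gene too has 1 probe set.

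Psmc4 lay on both sides of control, depending on the diet, without passing the test. It read 8.93, 9.19, 9.20 and 9.19 in control, 9.29, 9.52 and 9.34 at 0.1%, 8.90 and 8.71 at 0.5%, and 9.36 and 9.24 at 1.0%. Samples of the 0.1 and 1.0% diets lay above all control samples and those of the 0.5% diet below them. The differences were 0.26 (95% interval 0.02 to 0.49), -0.32 (-0.59 to -0.05) and 0.17 (-0.09 to 0.44), with adjusted p-values of 0.551, 0.831 and 0.823 in limma. Its second probe set gave -0.02, -0.28 and -0.14, so that of the 3 differences the one at 0.5% had the same sign in both. Psmc4 had the lowest p of the 47 genes in the F-test over the 4 diets, at an adjusted p of 0.389 in limma.

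Psmc1 was the only proteasome gene with all 7 phloridzin samples below all 4 control samples, as in 0.427% of all genes, and was singled out after its values were seen. It read 9.39, 9.44, 9.32 and 9.29 in control, 9.27, 9.22 and 9.0 at 0.1%, 9.24 and 8.89 at 0.5%, and 9.06 and 9.25 at 1.0%. The gap between the lowest control sample and the highest phloridzin sample was small (9.29 against 9.27). The differences were -0.20 (95% interval -0.44 to 0.05), -0.29 (-0.57 to -0.02) and -0.20 (-0.48 to 0.07), at adjusted p-values of 0.636, 0.923 and 0.795 in limma. No proteasome gene had all 7 above control (0.389% of all genes).

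Psmc6 was low at 0.1%, mainly in 1 of the 3 samples compared. The RNA left out for its labels of both the 0.1% and the 1.0% diet was low too (-0.72 from the control mean). It read 9.35, 9.20, 9.10 and 9.09 in control, 8.89, 9.10 and 8.24 at 0.1%, 9.20 and 9.24 at 0.5%, and 9.13 and 9.32 at 1.0%. Replicate 5 of the 0.1% diet was the lowest sample, and all 3 probe sets of the gene were low there. The difference at 0.1% was -0.44 (95% interval -0.80 to -0.09) at an adjusted p of 0.524 in limma, and -0.19 without that sample. Psmc2 and Psmc3, the remaining ATPases, differed from control by between -0.06 and 0.08 in every diet.

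**Figure D3:**
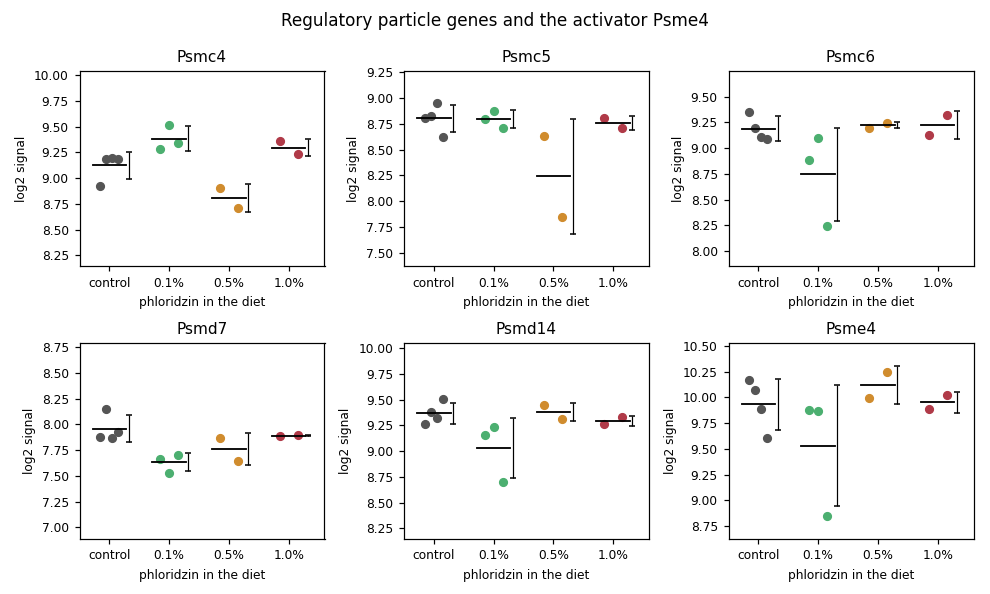
Log2 signal (y axis) of 3 base ATPases (Psmc4, Psmc5, Psmc6), the paired lid subunits Psmd7 and Psmd14 and the activator Psme4 in 4 control, 3 0.1%, 2 0.5% and 2 1.0% samples (x axis, phloridzin in the diet); points are RNA samples, lines the group means and bars the SD. Single samples lie apart for Psmc5 (0.5% replicates 4 and 5, 7.85) and for Psmc6, Psmd14 and Psme4 (0.1% replicate 5, 8.24, 8.70 and 8.85), while Psmd7 is lower in all 3 samples at 0.1%. The RNA with labels of both the 0.1% and the 1.0% diet is not plotted.

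In the rest of the regulatory particle the lower genes at 0.1% were Psmd7 and Psmd14, which pair in the lid and of which Psmd14 is the enzyme that cuts ubiquitin chains from the substrate. Psmd7 read 7.88, 8.15, 7.87 and 7.93 in control, 7.67, 7.53 and 7.70 at 0.1%, 7.87 and 7.65 at 0.5%, and 7.89 and 7.90 at 1.0%. All 3 samples at 0.1% lay below all control samples, and the other diets overlapped control. The difference at 0.1% was -0.32 (95% interval -0.58 to -0.07) at an adjusted p of 0.515 in limma, and it kept between -0.36 and -0.26 when any 1 sample was left out. Psmd14 read 9.26, 9.38, 9.32 and 9.50 in control, 9.15, 9.24 and 8.70 at 0.1%, 9.44 and 9.32 at 0.5%, and 9.26 and 9.33 at 1.0%. Its 0.1% samples also lay below all control samples, with replicate 5 farthest. The difference of -0.34 (-0.61 to -0.06) had an adjusted p of 0.525 in limma and was -0.17 without replicate 5. In all, 5 of 47 genes lay below every control sample at 0.1% (3.74% of all genes) and 2 above (4.13%), and at 0.5% 8 lay below (8.69%) and 0 above (9.16%). At 1.0% these counts were 4 below (12.4%) and 3 above (8.23%). Without the joins of RNA sets, they were 5 below (5.55%) and 0 above (6.06%) at 0.5%, and 3 below (8.78%) and 3 above (5.45%) at 1.0%.

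Psmd4, a ubiquitin receptor of the particle, had the lowest p for a slope on the percent of phloridzin. It read 9.26, 9.30, 9.57 and 9.33 in control, 9.20, 9.48 and 9.45 at 0.1%, 9.24 and 9.01 at 0.5%, and 9.16 and 9.07 at 1.0%. Both higher diets lay below all control samples once RNA sets were joined, and the lowest diet overlapped control. Before averaging, replicate 3 read 9.32 at 0.5% and 9.35 at 1.0%, inside the control range. Without the joins, neither higher diet lay wholly below control. The slope was -0.29 ± 0.12 (SE) log2 units per percent of phloridzin in the diet, at an adjusted p of 0.521 in limma, and a second probe set of the gene was lower at 0.5 and 1.0% too (-0.29 and -0.31). The next lowest p belonged to Psmb4, whose slope was -0.33 ± 0.14 (SE), and to Psme3, at -0.32 ± 0.16 (SE), with adjusted p-values of 0.543 and 0.576 in limma. At an adjusted p under 0.05, 0 of 47 slopes passed (0.00% of all genes), and 2 of 47 did so at an unadjusted p under 0.05 (8.83%). The F-test over the diets called 0 of 47 (0.0152% of all genes), with 3 of 47 at an unadjusted p under 0.05 (9.25%), Psmc4, Psmb4 and Psmc5. The slope was below 0 for 34 of 47 genes, beside 53.5% of all genes.

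The remaining 8 genes of the particle, among them the scaffold subunits Psmd1 and Psmd2, had log2 differences from -0.33 to 0.25 in the diets. Psmd13, a lid subunit, varied most, from 6.99 to 7.83 in control and from 6.85 (0.5% replicates 4 and 5) to 8.24 (0.1% replicate 5) in the phloridzin samples.

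The immunoproteasome genes showed no difference from control that passed the test. Psmb8 read 7.65, 7.54, 7.85 and 7.74 in control, 7.86, 7.45 and 7.90 at 0.1%, 7.55 and 7.25 at 0.5%, and 7.41 and 7.58 at 1.0%. The lowest sample was again that of 0.5% replicates 4 and 5, and each diet overlapped control. The differences were 0.04 (95% interval -0.27 to 0.35), -0.29 (-0.64 to 0.06) and -0.20 (-0.55 to 0.15), with adjusted p-values of 0.953, 0.965 and 0.839 in limma. Psmb9 read 7.36, 7.34, 7.06 and 7.19 in control, 7.52, 6.90 and 7.56 at 0.1%, 7.26 and 7.29 at 0.5%, and 7.43 and 7.32 at 1.0%. The 0.1% samples lay on both sides of control, and the differences were 0.09 (-0.26 to 0.44), 0.04 (-0.36 to 0.44) and 0.14 (-0.26 to 0.53). Psmb10 read 7.67, 7.92, 7.86 and 7.66 in control, 7.96, 7.44 and 8.39 at 0.1%, 7.75 and 7.75 at 0.5%, and 7.72 and 7.49 at 1.0%. The 0.1% samples again held both extremes, with differences of 0.16 (-0.24 to 0.55), -0.03 (-0.47 to 0.42) and -0.17 (-0.62 to 0.27). Replicate 4 of the 0.1% diet, the sample that stood apart in RNA quality, was the lowest sample for Psmb9 and Psmb10 and the third lowest for Psmb8, and replicate 5 was the highest for all 3 genes. A part of RNA quality in this was not tested.

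Psme1, a subunit of the interferon-inducible activator that opens the gate of the core, read 9.03, 9.16, 9.0 and 9.12 in control, 9.14, 9.32 and 9.0 at 0.1%, 9.18 and 9.0 at 0.5%, and 9.19 and 9.32 at 1.0%. Both 1.0% samples lay above all control samples. The difference there was 0.18 (95% interval -0.08 to 0.44) at an adjusted p of 0.801 in limma, and it was -0.12 with arrays centred on their medians. Each immunoproteasome subunit was also set against the core subunit it replaces, as the change of its log2 signal relative to that of Psmb5, Psmb6 or Psmb7. Over these 9 comparisons, chosen with earlier results of these data known, the change from control ranged from -0.20 (Psmb10 relative to Psmb7 at 1.0%, exact permutation p = 0.533) to 0.55 (Psmb10 relative to Psmb7 at 0.5%, exact permutation p = 0.133). The latter holds the low Psmb7 value of replicates 4 and 5. The adjusted p was 0.868 or more in all 9, two-sided. The smallest unadjusted p the design allows is 0.0286 at 0.1% and 0.0667 at the other diets. No adjusted p could thus fall under 0.05 whatever the values, so these tests cannot decide whether the subunits shifted.

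Markers of immune cells, which also express these genes, were given beside them. Of the 12 T and NK cell markers 3 were measured, of which Ccl5 and Gzma reached the floor of 3.00 in some samples, and of the 7 B cell markers 4 were measured, with Cd22 and Ms4a1 reaching it. The summed log2 signal of the T and NK markers was 4.88 to 5.95 in control, 5.85 to 6.09 at 0.1%, 5.39 to 5.47 at 0.5% and 5.50 to 5.51 at 1.0%, and that of the B cell markers 6.16 to 6.37, 5.97 to 6.19, 6.14 to 6.20 and 5.69 to 6.25. The Kupffer cell markers (11 of 13 measured) summed to 11.62 to 11.85 in control, 11.34 to 11.70 at 0.1%, 11.70 to 11.76 at 0.5% and 11.54 to 11.57 at 1.0%. The markers common to leukocytes (7 of 7) summed to 8.87 to 9.09, 8.73 to 9.26, 9.08 to 9.18 and 8.85 to 8.88 in the same order. Neutrophil markers (8 of 10 measured) summed to 7.52 to 7.81 in control, 7.37 to 7.84 at 0.1%, 7.69 to 8.67 at 0.5% and 7.63 to 7.83 at 1.0%, with Ltf, Mmp8 and Csf3r reaching the floor in some samples. The higher of the 0.5% values belonged to the sample of replicates 4 and 5, in which Psmb7 and Psmc5 were low. Sinusoidal endothelial markers (8 of 8) summed to 10.78 to 10.86 in control, 10.36 to 10.75 at 0.1%, 10.77 to 10.84 at 0.5% and 10.69 to 10.76 at 1.0%, and erythroid markers (2 of 5) to 9.47 to 9.83, 9.53 to 9.88, 8.78 to 9.13 and 9.45 to 9.52. Replicate 4 at 0.1%, low for Psmb9 and Psmb10, was the lowest sample in the mean of the endothelial (-0.59 from the control mean) and Kupffer cell (-0.46) markers. No marker of these lists passed the adjusted test, and the part of these cells in the proteasome values was not tested.

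Genes of interferon-gamma response and class I presentation, the pathway served by the immunoproteasome, were followed with 26 of 28 listed genes measured. The adjusted test called 0 of 26 in each diet, and the median differences were 0.00, 0.05 and -0.01. Higher than control were 14, 20 and 12 of 26, beside 50.6, 51.1 and 46.0% of all genes. The summed log2 signal was 14.58 to 14.65 in control, 14.50 to 14.62 at 0.1%, 14.62 to 14.69 at 0.5% and 14.67 to 14.71 at 1.0%. Both 1.0% samples thus lay above all control samples in this sum, with quantile normalization. At an unadjusted p under 0.05, 3 of 26 genes were higher at 1.0% (2.48% of all genes): Igtp (0.31) and Iigp1 (0.64), interferon-inducible GTPases, and Erap1 (0.48), which trims peptides after the proteasome. At 0.1% 1 was lower (3.99% of all genes), Pdia3 (-0.58), a chaperone of peptide loading. Erap1 was also among the 2 genes higher at 0.5% (2.52% of all genes), at 0.48, with Nlrc5 (0.69), a coactivator of class I genes. The adjusted p of Igtp, Iigp1, Erap1 and Nlrc5 in limma lay between 0.72 and 0.92 in the comparisons named, and that of Pdia3 at 0.1% was 0.46.

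The other activators act outside the immunoproteasome. Psme3, the nuclear activator, read 6.85, 7.03, 7.00 and 7.16 in control, 6.93, 7.19 and 7.22 at 0.1%, 6.62 and 6.77 at 0.5%, and 6.61 and 6.96 at 1.0%. Both 0.5% samples lay below all control samples, at a difference of -0.32 (95% interval -0.67 to 0.04) and an adjusted p of 0.96 in limma. Psme4, a nuclear activator linked to histone turnover, read 10.17, 10.07, 9.89 and 9.60 in control, 9.87, 9.86 and 8.85 at 0.1%, 9.99 and 10.25 at 0.5%, and 9.88 and 10.03 at 1.0%. The low value of replicate 5 at 0.1% was also seen in both other probe sets of the gene with a mean log2 signal above 6. The difference at 0.1% was -0.40 (-0.86 to 0.05) at an adjusted p of 0.617 in limma, and -0.06 without that sample. The inhibitor Psmf1 differed from control by -0.04 to 0.02 in the diets with the probe set used. Of its other probe sets with a mean log2 signal above 6, 1 gave -0.07, -0.24 and -0.27 at 0.1, 0.5 and 1.0%. Another gave -0.17, 0.05 and -0.24.

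The assembly chaperones help build the core (Psmg1 to Psmg4) and the base (Psmd5, Psmd9 and Psmd10). With quantile normalization they had median differences of -0.04 at 0.1%, -0.08 at 0.5% and -0.17 at 1.0%. Below control were 5, 6 and 6 of 7, beside 49.4, 48.9 and 54.0% of all genes. Psmd10 lay below every control sample in both 0.5% samples (6.75 and 6.63) and both 1.0% samples (6.56 and 6.70), where control was 6.81 to 6.89. Its differences there were -0.17 (95% interval -0.47 to 0.14) and -0.23 (-0.53 to 0.08), at adjusted p-values of 0.984 and 0.793 in limma. Psmd9 differed by -0.36 at 0.5% and -0.29 at 1.0%, with control values from 7.11 to 7.53 that overlapped those of each diet.

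Some samples held many of the extreme values. The 0.5% sample of replicates 4 and 5 lay below the control mean for 36 of 47 genes, beside 47.9% of all genes, and was the lowest of the 11 samples for 12 of 47 (8.60% of all genes). The other 0.5% sample lay below the control mean for 27 of 47 (49.1%). Replicate 5 of the 0.1% diet was the highest of the 11 samples for 19 of 47 genes, beside 25.4% of all genes, and the lowest for 6 (17.7%). In it the core beta genes had a median deviation of 0.34 from the control mean and the base ATPases one of -0.15. Replicate 4 of the 0.1% diet was the lowest for 11 of 47 (13.2%).

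**Figure D4:**
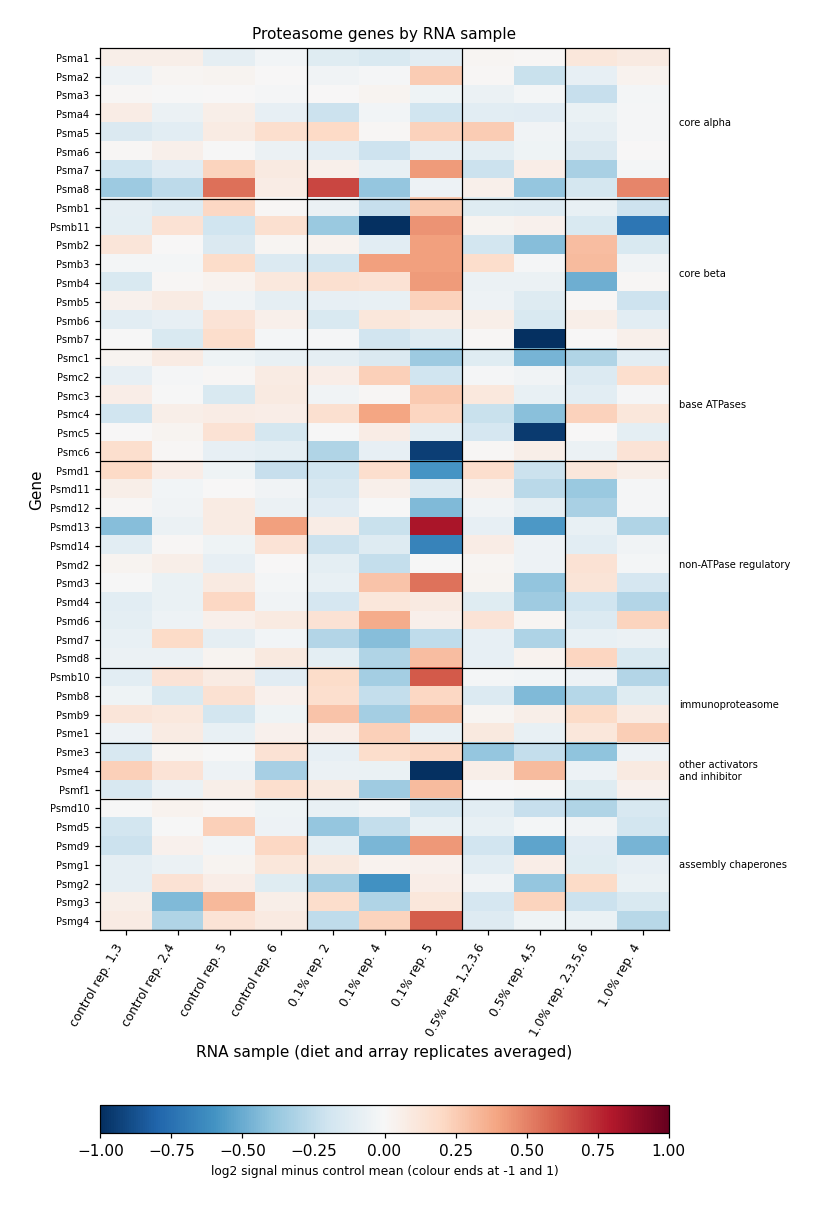
Log2 signal minus the control mean (colour, blue lower and red higher) for each of the 47 proteasome genes (rows, by class) in each of the 11 RNA samples (columns, by diet). The 0.1% sample of replicate 5 has strong colours in both directions (Psmd13 red, Psme4 blue), and the 0.5% sample of replicates 4 and 5 is blue in 36 of 47 rows, darkest in Psmb7 and Psmc5.

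Genes that work with the proteasome were also without a call. Of 29 listed proteasome-associated and shuttle genes 22 were measured, and the adjusted test called 0 of 22 in each diet, with median differences of 0.01, -0.06 and -0.10. At 0.1%, 3 of 22 were lower at an unadjusted p under 0.05 (3.99% of all genes): Usp14 (-0.39) and Uchl5 (-0.45), the deubiquitinases that dock on the regulatory particle, and Ubqln1 (-0.34), a shuttle that carries ubiquitinated proteins to it. At 1.0% 1 was lower (4.02% of all genes), Akirin2 (-0.42), which brings proteasomes into the nucleus. Txnl1, a redox protein bound to the particle, was the 1 gene higher at 0.1% (0.22, with 4.48% of all genes) and at 0.5% (0.32, with 2.52%). Of the ubiquitin and E1 genes only Uba6, an activating enzyme, was measured, with differences of -0.17, 0.13 and 0.04.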

How the data were processed

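Per the labels' protocols, liver RNA of each mouse was labelled with biotin after oligo(dT)-primed cDNA synthesis. The authors deposited linear intensity values for 45101 probe sets on 24 arrays; how probes were summarised, background-corrected and scaled is not stated in those sources, and array medians ran from 9.49 to 18.0. The platform annotation paired 34945 probe sets with 1 gene, 932 with several and 9160 with none, and 64 control probe sets were left out.

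Intensities were quantile-normalized, floored at 8 and log2-transformed, so a fold change understates the change of dim genes. Probe sets in the lowest 40% by mean signal were dropped, and 1 probe set per gene was kept, by highest mean. Arrays whose log2 difference had an SD under 0.08 were averaged as 1 RNA, then sets whose 200 most variable genes differed less than 1.2 times as much as the rest. Differences were tested in limma 3.58.1 (R 4.3.3; lmFit, eBayes with trend, 7 residual degrees of freedom, two-sided, Benjamini-Hochberg over 13118 genes, called under 0.05), with an F-test and a slope on diet percent. The procedure was tested on simulated data. Depth has no meaning here: the number of arrays limits precision.

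The genes, lists and tests were chosen with earlier results of these data known. Values in every sample were given for the catalytic and immunoproteasome genes, the activators, and, per diet, up to 3 higher and 3 lower genes at an unadjusted p under 0.05 and the 3 lowest p in the F-test and the slope; others, such as Psma3 and Psmc1, were chosen after their values were seen. List genes were named in order of p at 1.0% or, outside that rule, for an unadjusted p under 0.05. Of the promoter motifs searched, 1 is not reported here. Equal replicate numbers did not pair samples. Alternatives covered scaling, filter, floor, choice of probe set, grouping of arrays, the model and each sample left out.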

Additional observations from a re-analysis of the deposited data

Results flagged for a closer look

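In the 4 control samples, each of the 47 proteasome genes was screened for a sample far from the others (a gap above Dixon's 95% critical value), a screen that marks about 5% of groups by chance. The gap was exceeded by 2 genes. Psmc4 read 8.93 in the control sample of replicates 1 and 3, against 9.19 to 9.20 in the others. Psmg4, a chaperone of the core, read 6.75 in the control sample of replicates 2 and 4, against 7.13 to 7.18 in the others.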

How the results depend on the processing

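The grouping of arrays decided the counts of called genes. Taking all 24 arrays as separate samples called 16 of 47 proteasome genes at 0.1% (20.1% of all genes), 1 at 0.5% (3.42%), 2 at 1.0% (3.06%) and 25 in the F-test (35.9%). With the replicate number as a block as well, the counts were 16 at 0.1% (20.8% of all genes), 1 at 1.0% (2.65%) and 23 in the F-test (35.9%). Same-numbered arrays had deviations correlated from -0.15 to 0.42, so the numbers did not pair them. The 0.42 lay among the arrays of replicate 1, of which those at 0.1 and 1.0% held 1 RNA. The other numbers reached at most 0.25. Leaving out 1 RNA sample at a time gave 0 to 1 called at 0.5%, the 1 being Psmb7 without the sample of replicates 1, 2, 3 and 6, where the remaining 0.5% sample was assumed to vary like the other groups. The median difference at 0.1% ran from -0.054 to 0.063 when 1 sample was left out. With arrays centred on their medians, the median differences were -0.095 at 0.1%, -0.23 at 0.5% and -0.35 at 1.0%, and the median slope was -0.35. Of 789 alternative values of single genes, 60 changed sign, and 4 of these belonged to a value over 1 SE from 0 or to a call, namely Psmb7 at 0.5% without replicates 4 and 5 (0.0093; -1.15 without the other 0.5% sample), Psmb8 at 1.0% with the RNA of both labels kept (0.058), Psme1 at 1.0% centred (-0.12) and Psme3 at 1.0% with the median over probe sets (0.052). The cause was not tested. The other settings, a floor of 32, no filter, no joining of RNA by fingerprint, no trend and the compared diet with control alone among them, called 0 proteasome genes in every comparison (45 remained at the floor of 32). With 2 samples at 0.5% and at 1.0%, the 95% interval spanned a median of 0.31 log2 units on either side.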

Other observations

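The RNA that carried labels of both the 0.1% and the 1.0% diet entered no comparison. Its values lay below the control mean for 20 of 47 proteasome genes, beside 46.3% of all genes tested, and outside the range of the 11 other RNA samples for 18 of 47, beside 27.6% of all genes. Genes that were low in 0.1% samples were low in it too. From the control mean it differed by -0.93 for Psmd7, -0.72 for Psmc6, -0.70 for Psmd14 and -0.66 for Psme4.

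Probe sets of 1 gene did not always share a direction. Of the 26 proteasome genes with more than 1 probe set, 15 had more than 1 with a mean log2 signal above 6, and among these the direction from control differed between probe sets for 11 genes at 0.1%, 6 at 0.5% and 7 at 1.0%.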
